A study of Mus musculus with 4 samples.

Results

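The E2F transcription factors and the retinoblastoma-related pocket proteins were followed in CD4+CD8+ double-positive (DP) thymocytes that had or lacked an intact Srsf1 gene. The 10 genes were taken by symbol from the deposited expression table: the E2F genes E2f1, E2f2, E2f3, E2f4, E2f6, E2f7 and E2f8, and the pocket protein genes Rb1, Rbl1 and Rbl2. Other genes of the family were not analysed here, so sums and orders hold for these genes only. The members are 10 of the 53715 genes in the tables, and all 10 had enough reads to be tested among 16588 genes. DP cells were sorted from the thymus of C57BL/6 mice aged 6 to 8 weeks, and RNA was sequenced from 2 wild-type (WT) libraries and 2 libraries labelled KO, of genotype LCKCre/+ Srsf1fl/fl. In the KO mice a Cre recombinase under the Lck promoter, which is active in T lineage cells of the thymus, acts on a floxed Srsf1 gene. The labels give WT with no further allele and do not say whether WT mice carried Cre or loxP sites. Whether replicates came from separate mice is not stated, so p-values capture only how far these samples differ from each other, which may be technical variation.

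E2F factors bind the promoters of genes for DNA replication and cell division. E2f1, E2f2 and E2f3 are classed as activators, E2f4 acts mostly as a repressor together with pocket proteins, E2f6 works with Polycomb proteins independently of pocket proteins, and E2f7 and E2f8 are atypical repressors that bind DNA without a DP-family dimer partner. The pocket proteins bind E2F factors and hold them in check until cyclin-dependent kinases phosphorylate them. In the thymus, cells divide in a burst on entering the DP stage and then rest while they rearrange the T cell receptor alpha gene, so DP cells are a mixture of a dividing and a larger resting population.

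Promoter windows were examined for E2F-type letters because E2F genes are known to be regulated through E2F sites of their own. RefSeq windows on GRCm38.p6, 250 bases before to 50 bases after each annotated start, were given for 8 of the 10 genes, in 10 windows. No window was given for E2f4 or Rb1, so these genes were not searched. The E2F letters searched were TTTGGCGC, TTTGCCGC, TTTCGCGC and TTTCCCGC on both strands. They occurred in 4 of the 10 windows, against 2.26% of all 32851 windows. The windows with a match belonged to E2f2, E2f3, E2f7 and Rbl1, and are shown 5′ to 3′ on the gene strand with the E2F letters in capitals.
E2f2, chr4:136172024-136172323, plus strand: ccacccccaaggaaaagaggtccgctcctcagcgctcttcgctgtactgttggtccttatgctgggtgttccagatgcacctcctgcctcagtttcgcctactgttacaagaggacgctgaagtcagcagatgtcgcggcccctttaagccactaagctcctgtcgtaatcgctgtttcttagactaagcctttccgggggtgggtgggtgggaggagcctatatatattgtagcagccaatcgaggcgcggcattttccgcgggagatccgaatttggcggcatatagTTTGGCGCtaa
E2f3, chr13:29986014-29986313, minus strand: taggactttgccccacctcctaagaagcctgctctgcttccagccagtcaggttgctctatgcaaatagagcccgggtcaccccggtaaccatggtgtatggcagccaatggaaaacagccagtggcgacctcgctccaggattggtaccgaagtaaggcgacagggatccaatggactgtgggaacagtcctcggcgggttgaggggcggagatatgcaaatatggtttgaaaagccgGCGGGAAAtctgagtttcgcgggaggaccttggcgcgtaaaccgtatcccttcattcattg
E2f7, chr10:110745189-110745488, plus strand: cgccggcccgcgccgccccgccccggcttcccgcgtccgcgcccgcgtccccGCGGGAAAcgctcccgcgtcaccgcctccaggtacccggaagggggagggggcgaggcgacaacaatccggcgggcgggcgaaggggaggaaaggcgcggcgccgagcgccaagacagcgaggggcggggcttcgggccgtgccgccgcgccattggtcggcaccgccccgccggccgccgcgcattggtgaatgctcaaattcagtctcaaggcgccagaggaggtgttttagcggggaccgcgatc
Rbl1, chr2:157204485-157204784, minus strand: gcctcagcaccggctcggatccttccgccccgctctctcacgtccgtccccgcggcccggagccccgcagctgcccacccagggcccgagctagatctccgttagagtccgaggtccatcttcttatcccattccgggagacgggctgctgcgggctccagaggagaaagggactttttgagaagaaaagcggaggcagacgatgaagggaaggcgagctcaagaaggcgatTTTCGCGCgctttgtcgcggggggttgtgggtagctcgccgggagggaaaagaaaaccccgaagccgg

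The match in the E2f2 window began at base 40 counted from the start site, in the sense direction. It began at position -18 in Rbl1, -11 in E2f3 and -198 in E2f7, and in E2f3 and E2f7 it was on the opposite strand. A second motif, the cell cycle homology region (CHR) TTTGAA, which the MuvB core complex is known to bind in genes of late cell division, was searched on both strands. It was found in 4 of the 10 windows of E2F and pocket protein genes and in 17.9% of all windows. One of them is the window of E2f8, shown with the CHR in capitals, where it began at position -20 on the opposite strand.
E2f8, chr7:48881547-48881846, minus strand: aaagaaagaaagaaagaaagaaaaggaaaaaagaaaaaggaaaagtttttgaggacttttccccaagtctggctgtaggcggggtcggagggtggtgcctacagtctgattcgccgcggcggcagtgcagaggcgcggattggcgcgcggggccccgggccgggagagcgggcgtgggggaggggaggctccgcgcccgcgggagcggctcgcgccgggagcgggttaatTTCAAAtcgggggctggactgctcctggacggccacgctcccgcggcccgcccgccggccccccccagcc

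The other CHR matches were in the E2f3 window above, in a second window of E2f2 and in that of Rbl2. No member window held an E2F match and a CHR match that shared bases. The windows of E2f1 and E2f6 and the second window of E2f3 held neither set of letters, which says only that these letters are not in those windows. The E2f1 window is placed on a RefSeq start 466 bases inside the GENCODE gene. The E2f2 window shown lies on a start 120 bases upstream of the GENCODE one. The second window of E2f2, which held a CHR match, lies on a start 8388 bases inside the gene. That of E2f3 lies on a start 1672 bases inside. Exact matches are a description of the sequence and show no binding. For comparison, 15 of 40 windows of G1/S genes known as E2F targets held the E2F letters (37.5%), and 26 of 33 windows of G2/M genes known as MuvB and DREAM targets held the CHR (78.8%).

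The libraries held 35862730 to 37033180 counts, so 1 count was worth 0.027 to 0.0279 CPM, the count scaled to a fixed library total. The targeted gene, Srsf1, had 4821 and 4485 counts in WT and 1839 and 1772 in KO (log2 fold change -1.39, SE 0.09). The floxed exons are not named in the labels. Markers of DP cells were high in all libraries, with 45069 and 44181 counts of the coreceptor gene Cd4 in WT and 51070 and 50499 in KO. The summed level of 11 DP markers was 8840 to 9210 CPM in WT and 12200 to 12600 in KO, with 6 of 11 called higher and 1 lower. Over all tested genes, 6.63% were called higher and 7.89% lower. Markers of earlier thymocytes summed to 120 CPM in each WT library and 172 to 206 in KO (2 of 6 tested called higher, 1 lower), and markers of mature single-positive cells to 242 to 258 in WT and 200 to 221 in KO (1 of 8 higher, 4 lower). The B cell list summed to 231 to 238 CPM in WT and 357 to 363 in KO (2 of 5 tested higher), nearly all of it Ighm. Macrophage and dendritic cell markers summed to at most 21.1 CPM, erythroid markers to at most 5.09, and stromal markers to 130 to 150, with Foxn1 and Krt5 at 0 in all libraries and none of these 3 lists holding a called gene. Of single markers, Cd8a (log2 fold change 0.20), Rag1 (0.88) and Ptcra (0.67) rose and Ccr7 fell (-1.91), while Il2ra (0.47) was not called. Cd8a missed the threshold when WT replicate 1, WT replicate 2 or KO replicate 1 was left out (adjusted p by edgeR 0.115, 0.219 and 0.064), and Ptcra when WT replicate 1 or KO replicate 2 was (0.283 and 0.125), with library size only (0.0501) and with the length correction (0.0621). Cd4 was not called by edgeR (0.17, adjusted p = 0.0836) but was by DESeq2 (0.0376) and limma-voom (0.0177). The part of these shifts in the results on E2F and pocket protein genes was not tested. In bulk RNA, fewer cells of a type and less RNA per cell cannot be told apart.

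Among the 7 E2F genes taken, E2f4 and E2f2 were by far the most abundant per length, and they were also the members called higher in KO. E2f8 had a larger log2 fold change (0.42) without overlap but was not called. Its SE was 0.15, against 0.07 for E2f2 and 0.08 for E2f4. Levels per length are given in RPKM, reads per kilobase of gene, scaled to a fixed library total. E2f4 had 76.3 and 81.9 RPKM in the WT libraries and E2f2 had 63.0 and 66.5. Together they made up 84.3% to 85.4% of the summed RPKM of the 7 E2F genes in WT and 85.8% to 88.6% in KO. The third most abundant of these 7 was E2f1, at 10.4 and 12.7 RPKM in WT, followed by E2f8 at 5.90 and 6.48. E2f3, E2f6 and E2f7 each stood at 3.52 RPKM or less in every library. Of the pocket proteins Rb1 came first with 24.3 and 21.5 RPKM in WT, then Rbl2 with 12.1 and 13.7 and Rbl1 with 7.87 and 8.45.

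Across all 10 genes the order in WT was E2f4, E2f2, Rb1, Rbl2, E2f1, Rbl1, E2f8, E2f3, E2f6 and E2f7. Of these neighbours, Rbl2 and E2f1 overlapped between their WT libraries, and so did E2f3 and E2f6. In KO the order was the same, and neighbours overlapped for E2f1 with Rbl1, Rbl1 with E2f8, E2f3 with E2f6 and E2f6 with E2f7. RPKM divides by a single deposited gene length, so genes with several transcripts are compared only roughly.

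**Figure D1:**
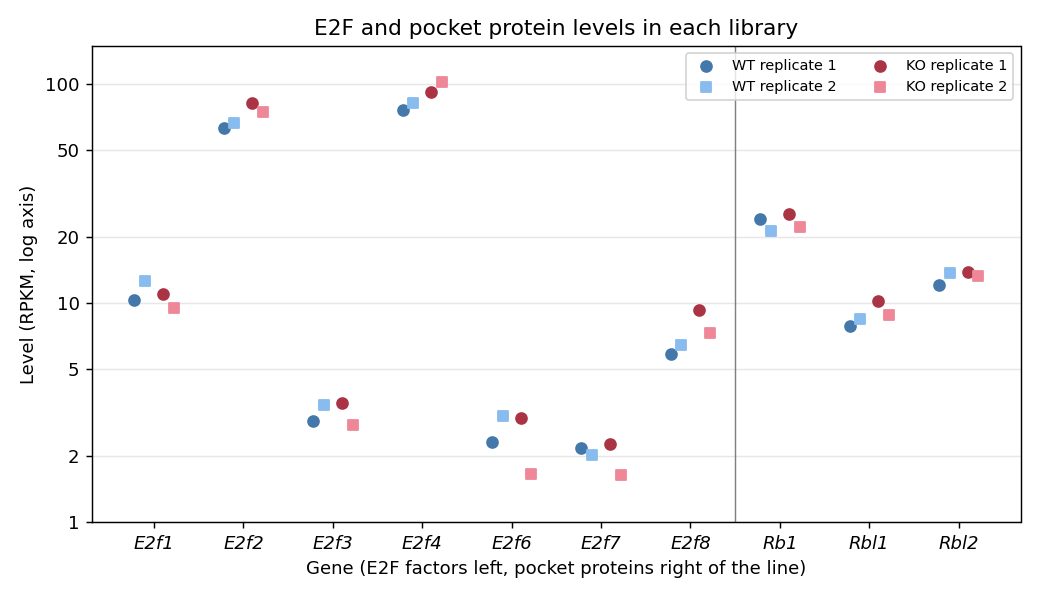
Level of each gene in RPKM (log axis) in the 2 WT libraries (blue) and the 2 KO libraries (red), with circles for replicate 1 and squares for replicate 2. E2f2 and E2f4 lie above 60 RPKM in every library and their KO points lie above their WT points, whereas E2f3, E2f6 and E2f7 lie under 4 RPKM with overlapping groups.

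Of the 10 genes, 2 were called higher in KO and 0 lower at an adjusted p under 0.05 by the edgeR quasi-likelihood test with Benjamini-Hochberg adjustment, and 8 were not called. Over all 16588 genes tested, 14.5% were called, 6.63% higher and 7.89% lower. In E2f8 and Rbl1 the groups did not overlap either, so that 4 of 10 had both KO libraries above both WT libraries in CPM, against 27.8% of all tested genes, and 0 of 10 below, against 28.1%. Without WT replicate 1, 0 of the 10 were called, and without KO replicate 1, 1 was. At the full number of libraries, 3 of the 10 had an unadjusted p under 0.05 by edgeR, beside 4542 of all 16588 tested genes. The median log2 fold change of the 10 was 0.08, beside 0.0 for all tested genes, and the largest size was 0.42, under the median size of 0.55 among called genes.

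Among the activators, E2f2 is known as the E2F whose loss lets mature T cells divide more readily. E2f2 (ENSMUSG00000018983.9), on the plus strand of chromosome 4 from 136172394 to 136196057 in GRCm38, had 11022 and 11846 counts in WT and 14945 and 13287 in KO. Both KO libraries were above both WT libraries, with 316 ± 12.1 CPM in WT and 384 ± 27.2 in KO (SD, n = 2). The log2 fold change was 0.28 (SE 0.07, 95% interval 0.12 to 0.45, adjusted p = 0.0228), a level 1.22 times that of WT. Leaving out WT replicate 1 ended the call (log2 fold change 0.25, adjusted p = 0.14), as did leaving out KO replicate 1 (0.23, 0.0665). With limma on log2 of RPKM plus 0.5 it was lost as well (adjusted p = 0.193 over all genes), with the same log2 fold change of 0.28.

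E2f1 (ENSMUSG00000027490.17, chromosome 2, 154559407 to 154569892, minus strand), the founding member, acts in cell cycle entry and also in thymocyte death. It had 1176 and 1458 counts in WT and 1280 and 1097 in KO, and the groups overlapped. Its log2 fold change was -0.17 (SE 0.15, adjusted p = 0.551), and the 95% interval of the fold ran from 0.71 to 1.12 times WT. E2f3 (chromosome 13, 29906575 to 29986063, minus strand), which gives rise to a longer and a shorter protein from separate promoters, had 567 and 683 counts in WT and 708 and 548 in KO. Its interval was wider, 0.73 to 1.34 times WT, and gene counts do not separate its isoforms. The RPKM of E2f2 was 6.06 and 5.25 times that of E2f1 in the WT libraries and 7.54 and 7.82 times in the KO libraries. This ratio did not overlap between the groups and was not tested. Both KO libraries lay above both WT libraries in CPM in 27.8% of single tested genes, and below in 28.1%.

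The repressor E2f4, which in resting cells sits on cell cycle promoters with a pocket protein, gave the other call. E2f4 (ENSMUSG00000014859.9), on the plus strand of chromosome 8 from 105297663 to 105305370 in GRCm38, had 6708 and 7332 counts in WT and 8424 and 9177 in KO. Its level was 194 ± 9.72 CPM in WT and 240 ± 17.5 in KO (SD, n = 2), again with no overlap. The log2 fold change was 0.31 (SE 0.08, 95% interval 0.13 to 0.49, adjusted p = 0.0258). This call ended when WT replicate 1 was left out (log2 fold change 0.27, adjusted p = 0.143), when KO replicate 2 was left out (0.23, 0.0808) and on log2 of RPKM plus 0.5 over all genes (0.30, 0.19). Unlike the other 9 members, E2f4 was higher in KO replicate 2 than in KO replicate 1.

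Neither atypical factor was called by edgeR at the reported settings, and their 95% intervals overlapped. E2f8, which restrains E2F target genes late in S phase, had 1152 and 1288 counts in WT and 1874 and 1448 in KO. Its level of 33.7 ± 2.23 CPM in WT and 45.2 ± 7.64 in KO did not overlap, and the log2 fold change of 0.42 was the largest among the 10 genes. It did not pass the adjusted test (SE 0.15, unadjusted p = 0.0126, adjusted p = 0.0728), and the difference between the KO libraries was large beside the difference between groups. Without KO replicate 2 the log2 fold change was 0.59 (adjusted p = 0.00845), and without KO replicate 1 it was 0.26 (0.406). E2f8 was also called with a filter of 1 CPM on average (0.0434) and with no filter beyond a count above 0 (0.0259). Its close relative E2f7 had 707 and 663 counts in WT and 758 and 541 in KO, a log2 fold change of -0.10 (SE 0.20, 95% interval -0.54 to 0.34). The RPKM ratio of E2f8 to E2f7 was 2.70 and 3.22 in WT and 4.09 and 4.43 in KO, without overlap. This ratio was not tested. Of single genes tested, 27.8% had both KO libraries above both WT libraries in CPM. E2f8 lies on chromosome 7 (48866429 to 48881596, minus strand) and E2f7 on chromosome 10 (110745439 to 110787384, plus strand). A processed transcript on the opposite strand, Gm2788, overlaps E2f8, and an antisense gene overlaps each of E2f7 and E2f3.

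E2f6, the Polycomb partner on chromosome 12 (16810963 to 16839742, plus strand), had the largest standard error of the 10. It had 473 and 631 counts in WT and 625 and 343 in KO, with its lowest value in KO replicate 2 and its highest in WT replicate 2. Its log2 fold change was -0.21 (SE 0.27), with a 95% interval of 0.57 to 1.30 times WT, the widest of the 10. Without KO replicate 2 the estimate was 0.15, and without KO replicate 1 it was -0.67 (adjusted p = 0.158).

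**Figure D2:**
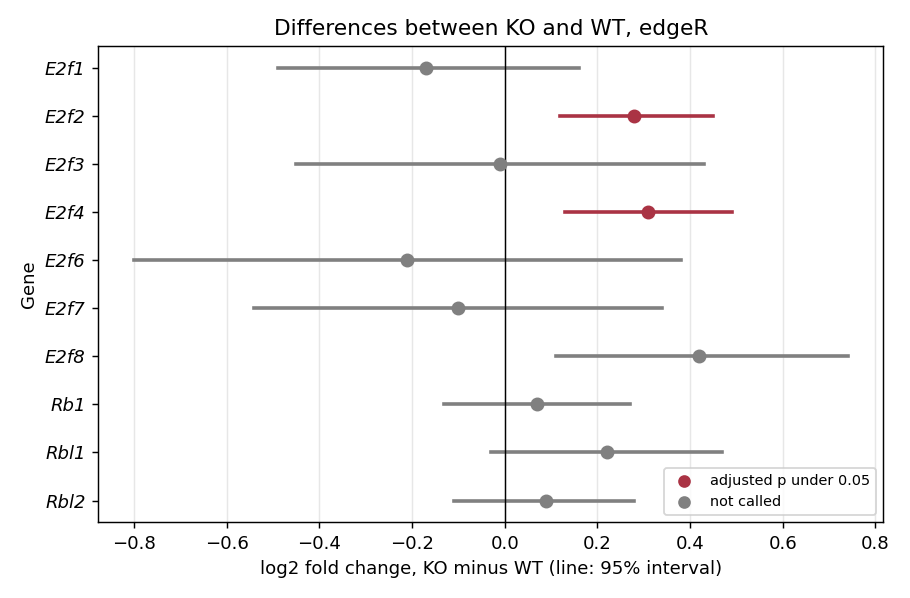
Log2 fold change of each gene, KO minus WT, as a point with its 95% interval from the edgeR fit. E2f2 (0.28) and E2f4 (0.31) are called; E2f8 (0.42) has an interval above 0 but an adjusted p of 0.0728, and the widest interval belongs to E2f6.

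None of the 3 pocket protein genes was called by edgeR. Rb1, which encodes the retinoblastoma protein and binds the activator E2Fs, had 5235 and 4731 counts in WT and 5708 and 4899 in KO. The groups overlapped, and the interval of 0.91 to 1.21 times WT came with a small difference (log2 fold change 0.07, SE 0.09, adjusted p = 0.727). Rbl2, the pocket protein that binds E2f4 in resting cells, had 3287 and 3775 counts in WT and 3896 and 3698 in KO, with 0.93 to 1.22 times WT (log2 fold change 0.09, SE 0.09). Rbl1, which is itself a classic E2F target and pairs with E2f4 in dividing cells, had 1692 and 1849 counts in WT and 2261 and 1922 in KO. Its KO values lay above its WT values, at 56.9 ± 5.82 against 48.9 ± 2.44 CPM, but the log2 fold change of 0.22 (SE 0.12) missed the threshold with adjusted p = 0.249. Changes in Rbl1 of up to 1.39 times WT lie within its interval. Rb1 lies on chromosome 14 (73183673 to 73325822), Rbl1 on chromosome 2 (157145893 to 157204534) and Rbl2 on chromosome 8 (91070057 to 91123844). Rb1 overlaps Rcbtb2 and Lpar6 on the opposite strand and Gm17233 and Mir687 on its own strand. Rbl2 overlaps Aktip and Gm45464, and Rbl1 overlaps a pseudogene, on opposite strands, and the strand setting of the counting is not given in the sources used here.

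The summed RPKM of the 7 E2F genes was 163 and 176 in WT and 204 and 201 in KO, while that of the 3 pocket protein genes was 44.3 and 43.7 in WT and 49.7 and 44.6 in KO. Their ratio was 3.68 and 4.03 in WT and 4.11 and 4.49 in KO, so the KO values were higher with a gap smaller than the spread within either group. Within the pocket protein class the shares of Rb1 (49.3% to 54.8% in WT, 50.1% to 51.5% in KO) and of Rbl2 overlapped between groups. The share of Rbl1 did not, at 17.8% and 19.3% in WT and 20.5% and 19.7% in KO, again with no test. The sum of the 3 activators stood at 1.0 and 1.01 times E2f4 in WT and at 1.05 and 0.847 times in KO, on either side of the WT values. E2f1 was lower as a share of the summed E2F level without overlap, at 6.38% and 7.19% in WT and 5.36% and 4.76% in KO. The same held for E2f3 (1.79% and 1.96% in WT, 1.72% and 1.38% in KO) and E2f7 (1.34% and 1.15% against 1.11% and 0.823%). Most of that sum is E2f2 and E2f4, both called higher in KO. These shares are a description with no test. Among single tested genes, 27.8% had both KO libraries above both WT libraries in CPM and 28.1% had both below.

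Replicates differed in a shared direction. In 9 of the 10 genes KO replicate 1 was above KO replicate 2 in CPM, against 51.8% of all tested genes, and in 8 of 10 WT replicate 2 was above WT replicate 1, against 51.3%. The same direction was seen in the 40 G1/S genes, 37 of which were higher in KO replicate 1 than in KO replicate 2, and in 33 of the 35 G2/M genes. Members of 1 pathway are not independent, and the share of dividing cells in each library was not measured.

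By the distance of log2 CPM profiles over the 4 libraries, the genes most like E2f2 among 9702 others with at least 5 CPM were Cs (distance 0.0153), which encodes citrate synthase, Ccp110 (0.0196), which encodes a centriole protein, and 2310039H08Rik (0.0213). Cs was called higher too (log2 fold change 0.29, adjusted p = 0.0384), and Ccp110 was not (0.28, 0.211). With 4 libraries the likeness is a description only.

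The partners of E2F and pocket proteins are given next, from lists of known complexes. The share called in this and the later lists stands beside 14.5% of all tested genes. The 9 genes of the list of dimer partners and MuvB or DREAM components, which also holds Mybl2 and Foxm1, had a median log2 fold change of 0.13. Of these, 1 was called higher, 0 lower and 8 not called (11.1% called). It was Tfdp1, a dimer partner of the E2F factors, with 3861 and 3915 counts in WT and 5029 and 4858 in KO (a log2 difference of 0.33, SE 0.08, adjusted p = 0.0165 by edgeR). Its call was lost without WT replicate 1 (0.0625) or WT replicate 2 (0.0593). Without KO replicate 2, 3 of the 9 were called higher. The MuvB subunits Lin9 (-0.04), Lin52 (0.13), Lin54 (0.02) and Lin37 (0.28), given as log2 fold changes, were not called, and neither was Foxm1, a factor of late cell division (0.34, adjusted p = 0.0658).

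Of 12 genes listed as E2f6 partners in a variant Polycomb complex, 3 rose and 4 fell (58.3% called, median log2 fold change 0.01). Rybp, which encodes a subunit of variant Polycomb complexes, fell from 7368 and 7745 counts to 2588 and 2038 (log2 fold change -1.73, SE 0.10), a larger size than that of any E2F or pocket protein gene. L3mbtl2, a methyl-lysine reader of the E2f6 complex, fell (-0.62, SE 0.10), and so did the ubiquitin ligase gene Rnf2 (-0.39, SE 0.09) and Yaf2, a relative of Rybp (-0.74, SE 0.17). The deacetylase gene Hdac1 (0.46, SE 0.08), the heterochromatin protein gene Cbx3 (0.39, SE 0.08) and Wdr5 (0.33, SE 0.10) rose. Wdr5 was not called by DESeq2 (adjusted p = 0.0511), nor when WT replicate 1 (0.196), WT replicate 2 (0.0651) or KO replicate 1 (0.178) was left out. With WT replicate 1 left out, Cbx3 (0.35, adjusted p = 0.0575) and Rnf2 (-0.33, 0.0928) were not called either. Without WT replicate 1, 1 rose and 3 fell. Pcgf6 (0.05) and Mga (-0.16), subunits particular to the E2f6 complex, were not called. Rybp, L3mbtl2 and Rnf2 overlap other annotated genes.

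Among 17 cyclins, cyclin-dependent kinases (CDKs) and CDK inhibitors that act on pocket proteins, 16 were tested, 3 rose and 1 fell (25.0% called, median log2 fold change 0.16). Cdk6, a kinase that phosphorylates pocket proteins in G1 phase, rose from 3607 and 3530 counts to 4544 and 5082 (log2 fold change 0.41, SE 0.09). Cdkn2c, an inhibitor of Cdk4 and Cdk6, rose too, from 1310 and 1421 to 2242 and 1913 (0.59, SE 0.12). Ccna2, the cyclin of S and G2 phase and an E2F target itself, rose from 2006 and 2660 to 4180 and 2922 (0.59, SE 0.15). With KO replicate 1 left out, Ccna2 was not called (0.34, adjusted p = 0.114). Cdkn1c, an inhibitor of several CDKs, fell from 361 and 379 counts to 78 and 124 (-1.89, SE 0.33). Ccnd3, a D cyclin that activates Cdk4 and Cdk6, had 38310 and 39952 counts in WT and 45158 and 40511 in KO and was not called (0.11, adjusted p = 0.295). Without WT replicate 2, 5 members rose, and without WT replicate 1, 2 fell. Cdk6, Ccna2 and Cdkn1c overlap other annotated genes.

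**Figure D3:**
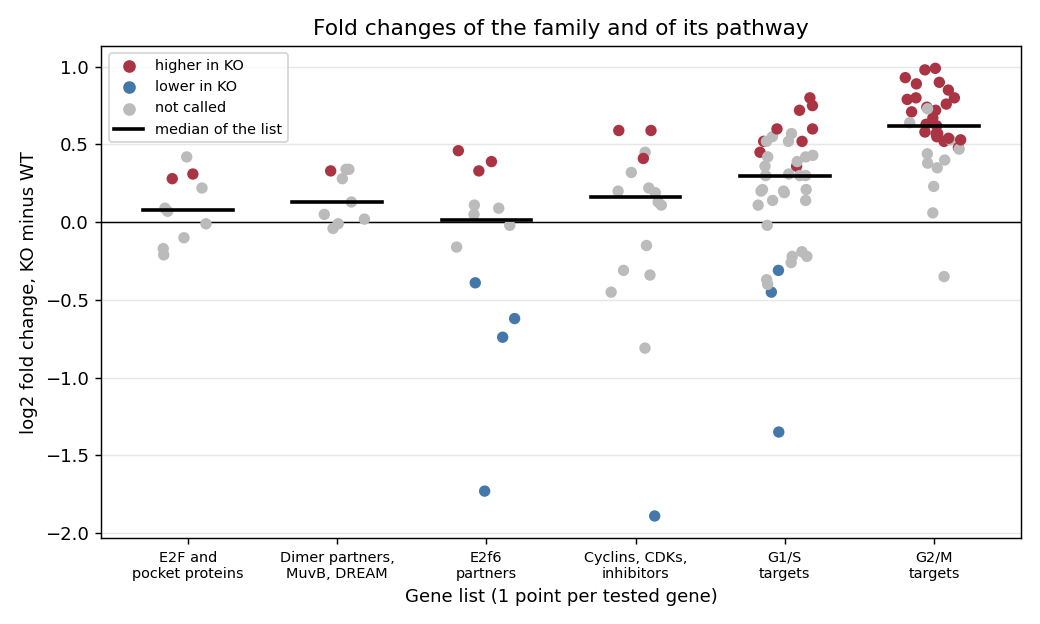
Log2 fold change, KO minus WT, of each tested gene in the family and in 5 lists of its pathway, with the median as a bar. The family's 10 genes lie between -0.21 and 0.42 (median 0.08), whereas the G2/M list is centred on 0.62 with 24 of 35 genes called higher.

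The G1/S genes known as E2F targets were mixed, with 9 of 40 higher, 3 lower and 28 not called (30.0% called). Their median log2 fold change was 0.30. Rrm2, a subunit of the enzyme that makes deoxynucleotides, rose from 3211 and 3841 counts to 6862 and 4904 (0.72, SE 0.13). Lig1, the replicative DNA ligase gene (0.60, SE 0.13), and the maintenance methyltransferase gene Dnmt1 (0.45, SE 0.09) rose as well. In the other direction Orc1, which encodes the largest subunit of the origin recognition complex, fell from 988 and 893 counts to 381 and 369 (-1.35, SE 0.19), and the licensing factor gene Cdt1 fell from 5713 and 5522 to 4252 and 4061 (-0.45, SE 0.08). Mcm4, a subunit of the replicative helicase, was just past the threshold (-0.31, SE 0.09, adjusted p = 0.0483). It was not called when WT replicate 2 (0.18) or KO replicate 2 (0.237) was left out, or with upper-quartile factors (0.0582) or library size only (0.0518). Without KO replicate 2, 21 of the 40 were called higher and 2 lower. Lig1, Dnmt1, Orc1 and Cdt1 overlap other annotated genes.

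Of the 35 G2/M genes known as MuvB and DREAM targets, 24 were higher, 0 lower and 11 not called (68.6% called), with a median log2 fold change of 0.62. At an unadjusted p under 0.05, 32 of the 35 passed by edgeR, beside 4542 of all 16588 tested genes. Plk4 was among the 32 and was lower in KO (log2 fold change -0.35). At an adjusted p under 0.05, DESeq2 called 23 and limma-voom 25. The spindle checkpoint kinase gene Bub1b rose from 2069 and 2341 counts to 4329 and 3477 (0.80, SE 0.11). The kinetochore motor gene Cenpe rose from 1492 and 1648 to 2749 and 2440 (0.71, SE 0.11), and the proliferation marker Mki67, which overlaps another annotated gene, rose too (0.62, SE 0.09). Without KO replicate 1, 12 of the 35 were called, and without KO replicate 2, 30. The summed level of the list was 1870 and 2000 CPM in WT, 3350 in KO replicate 1 and 2560 in KO replicate 2, so both KO libraries were above WT and they stood far apart. For the G1/S list the sums were 2990 and 3290 in WT and 3980 and 3300 in KO, where KO replicate 2 was close to WT replicate 2.

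**Figure D4:**
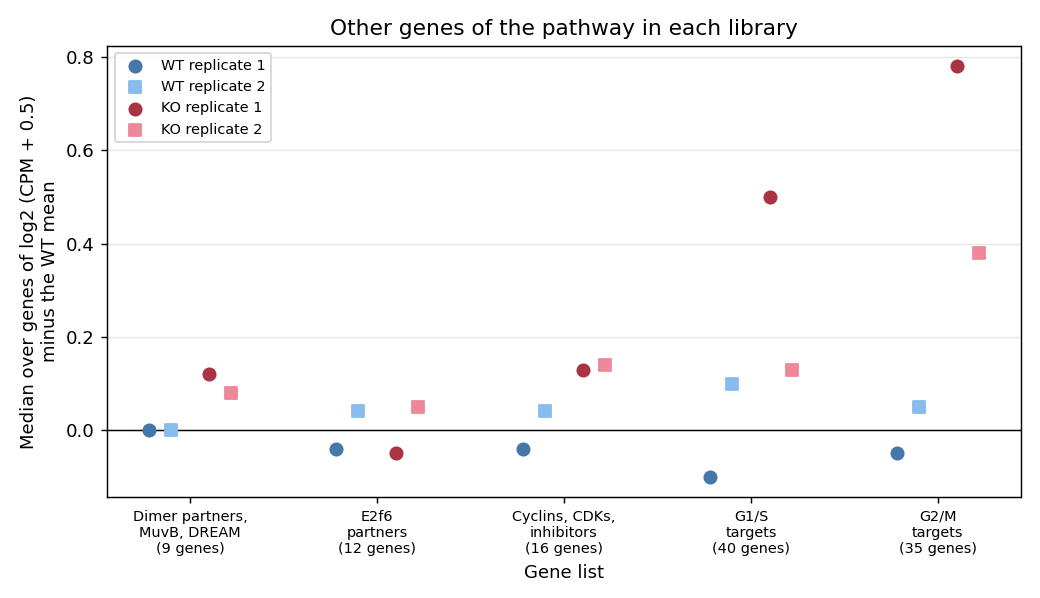
Median over the genes of each list of log2 (CPM + 0.5) minus the WT mean, in each library (circles replicate 1, squares replicate 2). For the G2/M list KO replicate 1 lies at 0.78 and KO replicate 2 at 0.38, for the G1/S list at 0.50 and 0.13, and for the other 3 lists all libraries lie within 0.14 of the WT mean.

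Set beside these lists, E2f2, E2f8 and Rbl1 had the same order of libraries as the G1/S and G2/M sums. WT replicate 1 was lowest, then WT replicate 2, KO replicate 2 and KO replicate 1. Both KO libraries were above both WT libraries in 27.8% of all tested genes, and how many had the full order was not counted. In the G1/S sums WT replicate 2 (3290 CPM) and KO replicate 2 (3300) were nearly equal. Cs, the citrate synthase gene named above as a profile neighbour of E2f2, had this order too. E2f4 did not, since KO replicate 2 was its highest library. The part of the share of dividing cells in the values of E2f2, E2f8 and Rbl1 was not tested.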

How the data were processed

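RNA from sorted DP thymocytes was sequenced in 2 WT and 2 KO libraries. The authors deposited raw counts per gene for each library and an RPKM table with gene lengths, from which each RPKM value was recomputed within a relative tolerance of 1e-06. Per the submitters' processing notes, the build was GRCm38 (mm10) and the tools were STAR 2.6.0a, HTSeq 0.6.1, FastQC 0.11.5, DESeq2 1.24.0 and cutadapt 1.17. Settings, strand included, are not stated there. Counts of 35862730 to 37033180 per library limit precision by counting error at low counts.

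Counts were tested with edgeR 4.0.16 in R 4.3.3 (quasi-likelihood, robust, TMM, filterByExpr, genotype only, two-sided) with Benjamini-Hochberg adjustment over all genes tested. The script was tested on simulated data. Standard errors and 95% intervals come from that fit. CPM are counts over the library total. Alternatives used limma 3.58.1, DESeq2 1.42.0, other scalings and filters, a replicate block and each library left out, and a length correction added after the data were seen. The members and the gene lists were chosen with earlier results of these data known.

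Named genes were all 10 members, Srsf1, up to 3 called genes per direction and pathway list by adjusted p, 3 profile neighbours of E2f2 and marker genes. Yaf2, Pcgf6, Mga, Ccnd3, Foxm1, Mybl2, Plk4, Ighm, Foxn1, Krt5 and the MuvB subunits were named after their values were seen. Gene coordinates are from GENCODE release 21 for mouse (53620 of 53715 identifiers matched). Promoter windows are RefSeq's on GRCm38.p6. Proteins were not analysed here.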

Additional observations from a re-analysis of the deposited data

How the results depend on the processing

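Of the alternatives run, the call counts over all genes and over the 10 members stayed within 1.5 times the reported ones under the other scalings, the other filters, DESeq2, limma-voom and the length correction. They did not in the tests on log2 RPKM by limma, nor did the member count with WT replicate 1 or KO replicate 1 left out (0 and 1 called). With 0.5 or 0.1 added and all genes kept, 0 genes were called higher and 0 lower, hence 0 members and 0 genes of each of the 5 lists, while 4289 and 4370 genes passed an unadjusted p of 0.05. With genes at a mean RPKM of at least 1, 483 genes were higher and 621 lower, and 0 members were called. The lists then gave 1 call among dimer partners and MuvB or DREAM components and 5 among E2f6 partners. The cyclin and CDK list gave 2 calls, the G1/S list 2 and the G2/M list 5. The list of dimer partners and MuvB or DREAM components gave 2 calls in place of 1 with no filter, with the filter of 1 CPM, with the replicate block and with the length correction.

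With 1 library left out, members called higher numbered 0 to 2, dimer partner and DREAM genes 0 to 3, E2f6 partners 4 to 7, G1/S genes 10 to 23 and G2/M genes 12 to 30. The 0 for members came without WT replicate 1, where 2 passed an unadjusted p of 0.05 by edgeR. Estimates that crossed 0 in these fits ran from -0.18 to 0.15 for E2f3, from -0.67 to 0.15 for E2f6, from -0.33 to 0.11 for E2f7 and from -0.01 to 0.16 for Rb1. The length correction gave 0.02 for E2f3. Of the markers, Lyz2 (reported 0.24) ran from -1.14 to 0.94 with 1 library left out and stood at -0.09 by limma-voom, -0.08 with the replicate block, -0.02 on log2 RPKM plus 0.5 with either filter and -0.08 with 0.1 added. Epcam (reported -0.14) ran from -0.34 to 0.04.

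Whether replicate numbers in the titles pair the samples is not stated. Across genes the replicate differences of WT and KO correlated at -0.039. With 2 pairs only, this cannot decide whether samples were paired. The replicate block gave 1304 genes higher and 1505 lower, and 2 members higher. Over all 16 alternatives E2f2 and E2f4 were each called in 11 and E2f8 in 3. The cause of these differences was not tested.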
